A study of Caenorhabditis elegans with 16 samples.

Results

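The comparison of baf-1(G12T) with wild type in the intestine of Caenorhabditis elegans rested on 8 of the 16 libraries of the series. Genome-wide association of RNA polymerase was measured by RNA polymerase DamID (RAPID), in which the polymerase subunit RPB-6 fused to the bacterial Dam methylase marks the GATC sites it meets, and freely diffusing GFP::Dam corrects for DNA accessibility. The 4 groups were wild-type Dam::RPB-6 (strain BN1415), wild-type GFP::Dam (BN1051), baf-1(G12T) Dam::RPB-6 (BN1417) and baf-1(G12T) GFP::Dam (BN1053), each with 2 replicates. The mutants carried the baf-1 allele bq19 (G12T) in every cell of the body, and animals of both genotypes were collected as L4 larvae after 48 h at 20 °C on bacteria without dam methylation.

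In all 4 groups the Dam fusion was a single copy on chromosome II behind a heat shock promoter (hsp16.41p) and a removable mCh::his-58 stop cassette, and nhx-2p::FLP, on chromosome IV, excised the cassette in the intestine. DNA came from whole animals, so tissue specificity depends on that excision. The files held 1 value per gene and genotype, the log2 ratio of Dam::RPB-6 to GFP::Dam (called the score here), with an FDR and the number of GATC fragments of the gene. They held no value per replicate. The study speaks of averaged differences and of calls made in each replicate, but how the deposited value was formed from the replicates is not spelled out in the sources used here. The differences below therefore have no replicate check, no error and no p-value. The files give no read depth, though the study lists reads per library. The study itself reports fewer intestine genes in each direction than are counted below, namely those that differed in both replicates. Of 19985 rows per genotype, 11 had no gene name, and the other 19974 genes were joined by name.

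BAF (barrier-to-autointegration factor) is a small DNA-binding protein that bridges chromatin, LEM-domain proteins such as emerin and the nuclear lamina, and it is needed to rebuild the nuclear envelope after mitosis. In humans an alanine-to-threonine substitution causes Néstor-Guillermo progeria syndrome, and G12T places threonine at the matching position of the worm protein. The worm intestine is a tube of large polyploid cells that digests bacteria, stores fat, makes yolk and carries much of the animal's stress and pathogen defence, so its busiest genes encode proteases, proton pumps, yolk proteins, metabolic enzymes and the translation machinery.

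The sequence at the mutated position and the marks that the assay reads are shown first, because every value below is a mean over GATC fragments. The first 60 coding bases of baf-1 lie on the plus strand at chrIII:9467469-9467528 of WBcel235 (RefSeq genome, the same build as ce11). The capitals mark codon 12, GGA for glycine in the reference sequence, which the G12T allele turns into a threonine codon.
baf-1 codon 12: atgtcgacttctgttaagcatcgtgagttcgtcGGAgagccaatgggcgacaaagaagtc

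The next windows show the GATC sites, in capitals, of ubl-1 and ubq-2. These genes were chosen because they encode 2 ubiquitin-type fusion precursors of ribosomal proteins, differed in opposite directions and hold few sites. In ubl-1 the windows span chrIII:3068962-3069003 on the plus strand, and in ubq-2 they lie between chrIII:12978101-12978445 on the minus strand. Each window has 10 bases on either side of its site.
ubl-1 GATC site 1: tatatttccaGATCgacgagaacg
ubl-1 GATC site 2: agaacggcaaGATCacccgtcttc
ubq-2 GATC site 1: tcaaggccaaGATCcaagacaagg
ubq-2 GATC site 2: aatcccaccaGATCagcaaagatt
ubq-2 GATC site 3: agcaaagattGATCttcgccggta
ubq-2 GATC site 4: gcgacaagcaGATCtgcagaaagt

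The 2 sites of ubl-1 lie 663 and 681 bases from the start of a gene of 901 bases, and they bound the 3 fragments over which its score was averaged. The 4 sites of ubq-2 start 89, 117, 131 and 410 bases into a gene of 561 bases and bound 5 fragments. The sites of vha-1, a proton pump gene described below, are equally few, at chrIII:9781362-9781746 on the plus strand.
vha-1 GATC site 1: gctgctgctgGATCtgcatatgga
vha-1 GATC site 2: tgcacgacccGATCtcgttatgaa
vha-1 GATC site 3: tcgttggaatGATCttgattctta
vha-1 GATC site 4: tctacggtatGATCgtcgccctta

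For the intestine label, 16 intestinal marker genes were examined. Of these, act-5 (intestinal actin), asp-1 (an aspartic protease), vha-6 (the apical proton pump subunit), mdt-15 (a Mediator subunit that controls fat metabolism) and ifb-2 (a gut intermediate filament) were called at FDR 0.05 in both genotypes, and 10 of the 16 were called in at least 1. The GATA factors elt-2 and elt-7 and the genes ges-1, mtl-2, ftn-1 and spp-5 were called in neither, and the score of elt-2, the main intestinal GATA factor, was -0.29 in wild type and -0.08 in the mutant. Markers of other tissues were called in part, where 15% of all named genes were called in at least 1 genotype. In hypodermis 3 of 12 were called (lin-26, nhr-25 and the collagen gene dpy-13, at 0.80 in wild type and 0.01 in the mutant), in muscle 1 of 6 (unc-15), in neurons 2 of 6 (egl-3 and unc-13), in pharynx 1 of 4 (pha-4) and in the germ line 0 of 6. Their part in the differences was not tested. A change in polymerase per cell, in the number of cells that excised the cassette, or in the GFP::Dam signal cannot be told apart in these ratios.

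RNA polymerase was called on 1585 genes in wild type (7.94% of all named genes) and on 2103 in baf-1(G12T) (10.5%). Both calls fell on 690 genes, 895 were called in wild type alone and 1413 in baf-1(G12T) alone, giving 2998 genes expressed in at least 1 genotype. The wild-type scores were more spread, with an SD over genes of 0.262 against 0.202 and a highest score of 3.79 against 2.68, so that the difference between genotypes (baf-1(G12T) minus wild type, on the log2 scale, called the change) was also computed after quantile normalization. Over all named genes the median change was 0.03, and -0.03 after quantile normalization. By any amount, 66.7% of all named genes and 58.3% of expressed genes were higher in baf-1(G12T) on the deposited scale, and 38.8% of all named genes after normalization, and counts of higher members in a list are to be read beside these shares. Over the 2998 expressed genes it was 0.15, and 0.09 after quantile normalization.

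A change over 1, that is over 2-fold, was recorded for 86 expressed genes that were higher in baf-1(G12T) (2.87% of expressed genes) and 86 that were lower (2.87%), together 5.74%. After quantile normalization these became 87 (2.9%) and 64 (2.13%). Of the 86 higher genes 70 were also past 2-fold after normalization, as were 60 of the 86 lower genes. At the threshold, hda-2 was just inside at 1.01 and clec-225 just outside at 0.998, and on the other side fbxa-94 was just inside at -1.001 and asp-5 just outside at -0.99. The lists below also hold uncalled genes, so counts past 2-fold in a list are to be read beside 5.74% of its expressed members.

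**Figure D1:**
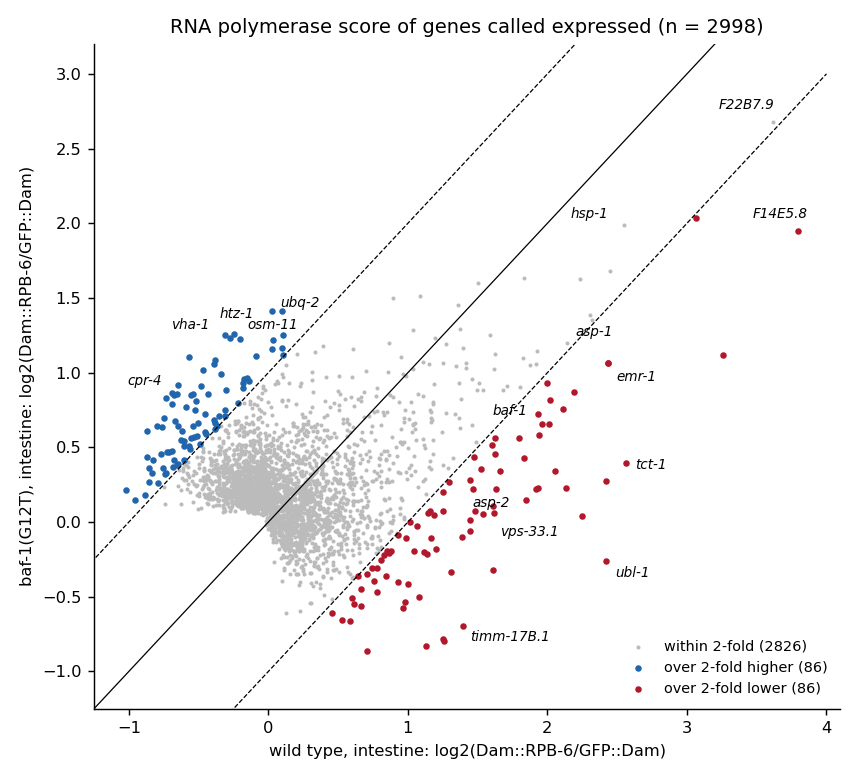
Score of each of the 2998 expressed genes in wild type (x axis) and baf-1(G12T) (y axis), both as log2(Dam::RPB-6/GFP::Dam) in intestine, 1 point per gene, with the solid line at equality and dashed lines at 2-fold. The 86 higher genes (blue) lie mostly left of 0 in wild type, the 86 lower genes (red) reach wild-type scores of 3.79, and the corner where both scores are low is empty because genes called in neither genotype are not drawn.

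The higher and lower sets differed in their starting scores. Both were picked by these same scores, and the wild-type scores were the more spread, so what follows is a description only. With baf-1(G12T) scores scaled to the wild-type SD, 86 higher and 86 lower became 159 and 89. The higher genes had a median score of -0.55 in wild type (range -1.02 to 0.10) and 0.68 in baf-1(G12T) (0.15 to 1.42), and 79 of 86 were below 0 in wild type. The lower genes started from a median of 1.30 (0.45 to 3.79) and came to 0.01 (-0.86 to 2.04), and 43 of 86 were below 0 in baf-1(G12T). Only 1 higher gene, F33H12.1 (0.10 to 1.25), was called in both genotypes, whereas 29 lower genes were. Within the 690 genes called in both, the 2-fold share was thus 0.145% higher and 4.2% lower, while 316 genes were higher and 374 lower by any amount. Across those 690 genes the 2 sets of scores had a Pearson r of 0.66 (Spearman rho 0.59), a description over genes that share their libraries.

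Genes were also banded by the score of 1 genotype. Picking genes by a high score in 1 genotype favours a lower score in the other, so these directions are a description only. On the deposited scale all 22 genes with a wild-type score over 2 were lower in baf-1(G12T), with a median change of -1.36. That median shrank to -0.71 after quantile normalization. All but 5 of the 124 genes between 1 and 2 were lower too (median -0.78, and -0.51 after normalization). Read from the other side, 268 of the 347 genes with a baf-1(G12T) score of 0.5 to 1 were higher than in wild type (median change 0.49), as were 32 of the 60 genes between 1 and 2 (median 0.10) and 0 of the 2 genes over 2 (median -0.98). In both genotypes the highest scores belonged to few genes. F22B7.9, at rank 1 in baf-1(G12T) and rank 2 in wild type, went from 3.62 to 2.68, a difference that changed sign (to 0.41) under quantile normalization. F14E5.8, which lies beside the site where the Dam constructs were inserted, went from 3.79 to 1.95, and the inserted construct's part in its score was not tested. hsp-1, the constitutive Hsp70 chaperone, held rank 6 in wild type and rank 3 in baf-1(G12T), and its change was -0.56 on the deposited scale but 0.53 once quantiles were matched.

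Of the 5 expressed genes of the nuclear lamina and LEM-domain list, 4 were lower and 1 was higher. baf-1 itself scored 2.02 in wild type (FDR 3.52e-05) and 0.81 in baf-1(G12T) (FDR 0.00253), a change of -1.20 (-0.69 after quantile normalization) over 4 GATC fragments, and it was called in both genotypes. emr-1, which encodes emerin, a LEM-domain protein of the inner nuclear membrane that binds BAF, went from 2.43 to 1.06 (change -1.37, or -0.64 after normalization). Both genes thus stayed among the called genes with lower scores, and neither was past 2-fold after normalization. The study also measured RNA of whole animals by quantitative RT-PCR, an unlike measure that is not limited to the intestine. There it reports no difference for baf-1 and emr-1 and a reduction of lmn-1 in the mutant.

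lmn-1, the only lamin gene of the worm, scored 0.49 in wild type and 0.05 in the mutant, over 17 fragments. vrk-1, a kinase that phosphorylates BAF and releases it from chromatin, scored 0.55 and 0.00. lem-2, which encodes the other inner-membrane LEM-domain partner, was called in neither genotype (-0.11 and 0.17). The 1 expressed list member that was higher, lap-2 (-0.04 in wild type and 0.39 in the mutant), was listed by its name only. Its tie to BAF-1 or to the lamina was not examined, a limit on the list's counts and medians. Over the 9 listed lamina and LEM-domain genes 4 were higher and 5 lower, with a median change of -0.01. The 5 expressed ones, chosen by the same scores, had a median of -0.54.

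The LINC and nuclear pore lists had no expressed member past 2-fold. In the LINC complex, which links nuclei to the cytoskeleton, the KASH-domain gene kdp-1 went from 0.81 to 0.24, and the changes of the SUN-domain gene unc-84 (-0.22) and of the giant KASH gene anc-1 (0.16, over 212 fragments) were small. Of 43 nuclear pore and transport genes 0 were past 2-fold, and their median change was 0.05. The extremes of that list were npp-2, a nucleoporin gene (-0.31 to 0.43), and ima-3, an importin alpha gene (0.66 to 0.06).

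Genes tied to the assay were examined as a check. The endogenous rpb-6 gene scored -0.37 in wild type and 0.14 in the mutant, and ama-1, which encodes the largest polymerase II subunit, 0.04 and -0.07. nhx-2, the sodium-proton exchanger gene whose promoter drives FLP, scored 0.05 and 0.24, and hsp-16.41 scored -0.10 and -0.18. Since the constructs carry rpb-6 and promoter sequence of nhx-2 and hsp-16.41, reads from those copies cannot be told apart from the endogenous genes in the values at hand. All 4 changes were under 2-fold.

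Cytosolic ribosomal protein genes were often past 2-fold (33.3% of expressed large-subunit and 20% of expressed small-subunit genes, beside 5.74% of all expressed genes), without a common direction. Of 83 listed genes 58 were expressed, 4 of these were past 2-fold higher and 12 lower, and over all 83 genes 38 were higher and 45 lower with a median change of -0.04. After quantile normalization the 4 higher and 12 lower became 5 higher and 3 lower. The member with the largest change was ubl-1, which encodes a ubiquitin-like protein fused to a small-subunit ribosomal protein: 2.42 in wild type and -0.26 in the mutant, a 6.40-fold lower ratio, from rank 10 to rank 18568. ubq-2, which encodes ubiquitin fused to a large-subunit protein, was the opposite, with 0.02 in wild type and 1.42 in the mutant, rank 12 in the mutant. So the genes whose GATC sites are printed above differed in opposite directions by 2.68 and 1.39 on the log2 scale.

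In the large subunit (51 genes) the higher ones were rpl-10 (-0.28 to 1.23), ubq-2, rpl-36 (-0.45 to 0.60) and rpl-29 (0.10 to 1.12), and the 7 lower ones included rla-1, a stalk protein gene (2.44 to 1.07), rpl-39 (2.01 to 0.65), rpl-1 (1.80 to 0.56) and rpl-3 (1.93 to 0.72). After normalization 4 large-subunit genes were past 2-fold higher and 0 lower. In the small subunit (32 genes) 0 were past 2-fold higher and 5 were lower, ubl-1 together with rps-19 (1.83 to 0.43), rps-11 (1.94 to 0.58), rps-17 (1.96 to 0.66) and rps-5 (0.59 to -0.66), and after normalization 1 was past 2-fold higher and 3 lower. The large members just under the threshold ran the other way as well, with rps-21 at 0.94 and rps-22 at 0.92. Ribosomal genes are short, with a median of 4 GATC fragments per gene in both subunits. Among those with 2 to 3 fragments 8 of 20 expressed genes were past 2-fold (40%), with 4 to 7 fragments 6 of 28 (21.4%) and with 8 to 15 fragments 2 of 10 (20%), where all expressed genes of those classes stood at 21.7%, 11.2% and 4.13%.

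Translation factors, tRNA synthetases and mitochondrial ribosome genes were listed separately. Of 47 translation factor genes 0 were past 2-fold. The elongation factor genes eef-1A.1 and eef-1A.2, near-identical copies whose reads may be shared, went from 2.45 to 1.68 and from 1.88 to 1.05, although eef-1A.1 was 0.08 higher after quantile normalization. inf-1, which encodes the helicase eIF4A, was the most lowered (1.49 to 0.54) and eif-6, a factor of large-subunit maturation, the most raised (-0.07 to 0.76). Of 32 tRNA synthetase genes 25 were higher (beside 66.7% of all named genes) and 0 were past 2-fold. Their median change was 0.13, and 0.05 after quantile normalization. Of 71 mitochondrial ribosome genes 41 were higher and 30 lower, and of the 14 expressed ones 1 was past 2-fold in each direction (14.3% together), mrpl-12 (-0.76 to 0.36) and mrpl-10 (0.45 to -0.61).

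The vacuolar proton pump (V-ATPase), which acidifies lysosomes and the gut lumen, is described by sector, and the difference between its sectors was not tested. Of the 12 genes of the membrane sector V0, which carries the protons, 10 (beside 66.7% of all named genes) were higher in baf-1(G12T), and the list's median change was 0.36 (0.31 after quantile normalization) beside 0.03 over all named genes. vha-1, a proteolipid ring subunit, scored -0.31 in wild type and 1.25 in the mutant, a 2.96-fold higher ratio that put it at rank 19. vha-4, another ring subunit, went from 0.39 to 1.18. The a subunits unc-32 (0.00 to 0.58), vha-6 (0.51 to 0.98) and vha-5 (-0.09 to 0.18) and the stalk subunit vha-16 (0.15 to 0.60) were higher too, and of these vha-6 is the form of the intestinal apical membrane.

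A single expressed V0 gene was lower. vha-2, a proteolipid like vha-1, went from 1.47 to 0.43 (change -1.04, or -0.81 after normalization). vha-1 and vha-2 lie on the same strand with 400 bases between them and share 1 GATC fragment. The 10 genes of the catalytic sector V1 had no common direction (5 higher and 5 lower, median -0.02). The B subunit gene vha-12 was lower (1.25 to 0.60), the F and E subunit genes vha-9 (0.14 to 0.81) and vha-8 (-0.06 to 0.54) were higher, and vha-11 was nearly level (0.57 and 0.58).

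Digestive proteases held genes on both sides. Of 17 aspartic protease genes, lysosomal and digestive enzymes of the gut, 9 were expressed and 6 of these were lower. asp-2 went from 1.85 to 0.15 (change -1.70, over 13 fragments), asp-13 from 1.62 to 0.56, asp-6 from 1.32 to 0.43 and asp-3 from 1.18 to 0.55. asp-1, the family's highest gene in both genotypes, went from 2.14 to 1.20, a change of -0.94 that was -0.15 after quantile normalization. The expressed members that were higher started low, asp-12 (-0.58 to 0.37), asp-17 (-0.17 to 0.41) and asp-4 (0.32 to 0.48). The median change of the 9, a set chosen by the same scores, was -0.90 (-0.45 after quantile normalization), and that of all 17 was -0.04.

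The cathepsin-type cysteine proteases held 1 gene past 2-fold in each direction. cpr-4, a cathepsin B-like protease, scored -0.65 in wild type, where its FDR was 1, and 0.91 in baf-1(G12T), where its FDR was 0.000621 (2.95-fold higher). cpr-5, of the same family, went from 0.87 to -0.20. cpr-1 was higher (-0.59 to 0.38), cpr-6 was lower (1.17 to 0.67), and cpl-1, the cathepsin L gene, was lower by less (0.52 to 0.27). Among the antimicrobial saposin-like genes, spp-17 went from 2.05 to 0.34 (change -1.71) and spp-16 from -0.42 to 0.43. lys-1, the leading lysozyme gene here, went from 1.51 to 0.93.

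The vitellogenin genes, which encode the yolk proteins that the gut exports to oocytes, were long. All 6 had slightly to moderately higher scores, with a median change of 0.12, although vit-4 was at -0.05 after quantile normalization, which moved the median of the list to 0.45, and vit-2 was at -0.01 after median centring. vit-6 scored 1.50 in wild type and 1.60 in the mutant, and vit-2 scored 1.19 and 1.23. vit-1 went from -0.29 to 0.43 and vit-5 from 0.21 to 0.55. These genes hold 27 to 31 GATC fragments each, and vit-3, vit-4 and vit-5 are near-identical copies whose reads may be shared. None was past 2-fold, and their common sign was a description of 6 genes in 1 table per genotype.

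**Figure D2:**
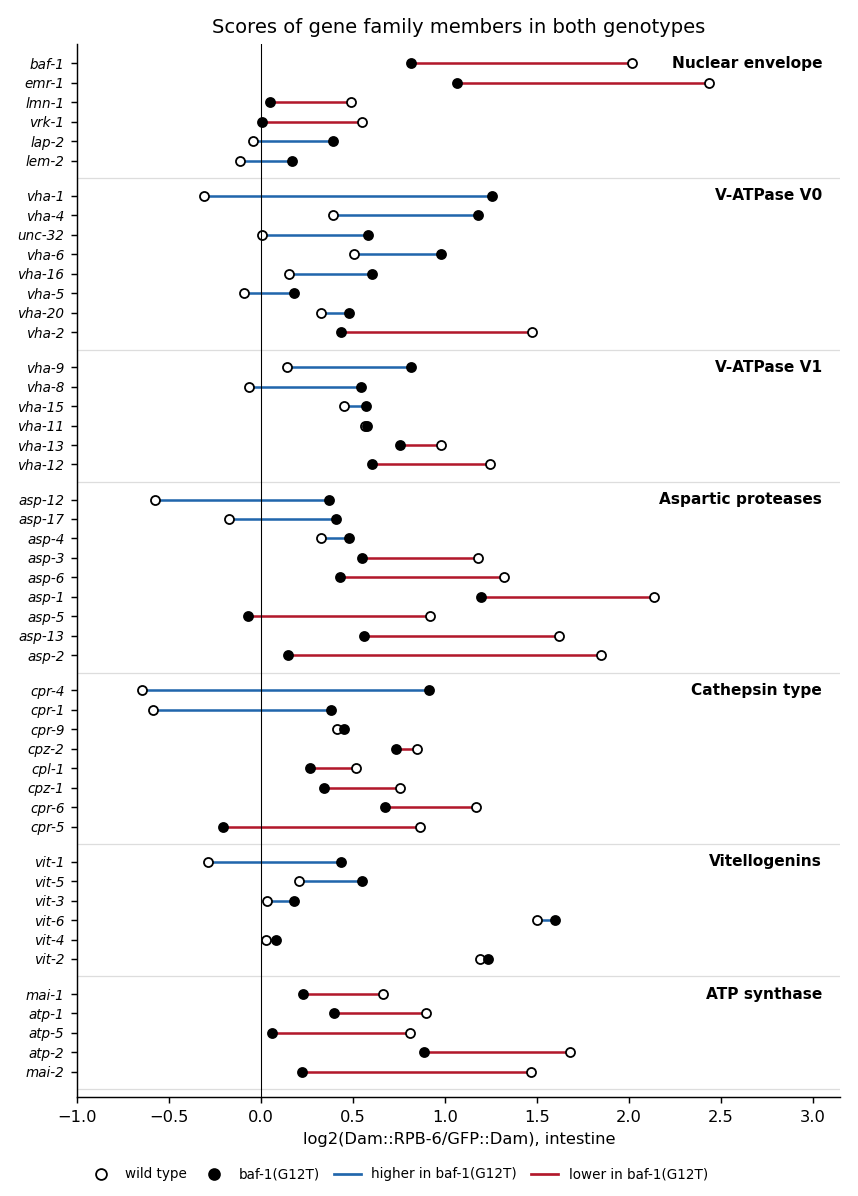
Score in wild type (open circles) and baf-1(G12T) (filled circles) of family members named in the text, 1 gene per line, joined in blue where baf-1(G12T) was higher and in red where it was lower. vha-1 and vha-2 cross in opposite directions, and 6 of 9 aspartic protease genes are lower. The 5 ATP synthase genes shown, all of them called in wild type, are lower.

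In central metabolism the same pathway often held genes on both sides. Among glycolytic genes gpd-3 (1.62 to 0.06) and gpd-2 (1.995 to 0.93) were past 2-fold lower. They encode glyceraldehyde-3-phosphate dehydrogenase, lie 101 bases apart and are near-identical, so their values may not be independent. enol-1, the enolase gene, was higher (-0.62 to 0.30). In the citric acid cycle mdh-2, the mitochondrial malate dehydrogenase gene, went from -0.67 to 0.67 (2.53-fold higher), while mdh-1, the cytosolic form, went from 1.18 to 0.79. cts-1, the citrate synthase gene, was high in both genotypes, at 1.04 and 1.29.

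All 5 expressed genes of the ATP synthase list were lower, with a median change of -0.75 (-0.45 after quantile normalization). The 5 genes were the inhibitor genes mai-2 (1.47 to 0.22, the 1 member past 2-fold) and mai-1 (0.66 to 0.23), the beta subunit atp-2 (1.68 to 0.89), the alpha subunit atp-1 (0.90 to 0.40) and atp-5 (0.81 to 0.06). Over all 12 listed genes 8 were lower and the median was -0.17 (-0.28 after quantile normalization). In complex I 12 of 14 genes were higher (beside 66.7% of all named genes), but the median of 0.08 became -0.01 after normalization. timm-17B.1, a subunit of the inner-membrane import channel, had the largest difference in the metabolic lists, from 1.39 to -0.70 (4.26-fold lower), and it went from rank 68 to rank 19891 of 19974.

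Fat metabolism genes were within 2-fold in all listed families. The polyunsaturated fatty acid desaturase genes fat-4 (-0.31 to 0.45), fat-3 (-0.21 to 0.45) and fat-2 (-0.15 to 0.31) were higher, whereas fat-6, a stearoyl desaturase gene, was slightly lower (0.59 to 0.40). Of 42 beta-oxidation genes 31 were higher (median 0.15), beside 66.7% of all named genes, and 0 were past 2-fold. Of the 12 expressed ones, chosen by the same scores, 4 were higher and 8 lower, with a median change of -0.05 (-0.12 after quantile normalization). acdh-1, an acyl-CoA dehydrogenase gene that responds to diet, went from 1.92 to 1.06. acs-2, a fatty acid activation gene induced by fasting, went from 0.24 to 0.93. Of the genes outside the lists, odc-1, which encodes ornithine decarboxylase of polyamine synthesis, was among the 10 largest falls (1.61 to -0.32).

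Protein turnover genes are described by the proteasome's parts. In the 20S core, 11 of 14 genes were higher, beside 66.7% of all named genes (median 0.33, and 0.30 after quantile normalization). pbs-4 was past 2-fold (-0.73 to 0.47), and pas-1 (-0.42 to 0.35), pbs-6 (-0.11 to 0.65) and pbs-5 (0.10 to 0.82) followed, while pas-2 was lower (1.37 to 0.70). In the 19S regulatory particle 9 of 19 genes were higher and 10 lower, with a median of -0.03 and 0 past 2-fold, and rpn-5 (0.84 to 0.14) and rpn-9 (1.01 to 0.36) were the most lowered. Of the 8 genes of the CCT chaperonin, which folds actin and tubulin, 7 were higher, beside the same 66.7%. The largest rise was 0.45 (cct-7), and cct-6 was lower (0.89 to 0.28). The difference between the core and the particle was not tested.

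The major chaperone genes were high in both genotypes. hsp-90 scored 2.31 and 1.38 and lies 70 bases from C47E8.11 (2.19 and 0.87). crt-1, the calreticulin gene, scored 2.23 and 1.63, and its change turned from -0.60 to 0.25 after quantile normalization. hsp-6, the mitochondrial Hsp70, scored 1.49 and 0.88. The heat-inducible genes stayed low, with hsp-16.2 at 0.06 and 0.46 and hsp-70 at 0.20 and 0.40.

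Membrane traffic towards the lysosome held the second largest fall. Of 46 vps and related genes 39 were higher (beside 66.7% of all named genes), and 0 were past 2-fold higher. The list's median change was 0.15 (0.08 after quantile normalization), beside 0.03 over all named genes. vps-33.1, a Sec1/Munc18-type subunit of the complexes that tether endosomes and lysosomes, went from 2.24 in wild type (rank 14) to 0.04 (rank 4682), 4.61-fold lower over 13 GATC fragments. Its partners in those complexes did not follow: vps-16 was 0.99 higher (-0.75 to 0.24), vps-41 was 0.62 higher (-0.44 to 0.18), and vps-11, vps-18 and vps-39 were within 0.24. Other raised members were the ESCRT-related genes did-2 (0.13 to 1.05), vps-60 (-0.63 to 0.21) and vps-24 (-0.23 to 0.60).

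In the secretory pathway trap-1, a subunit of the translocon-associated complex, was past 2-fold lower (1.66 to 0.34), and trap-4 followed it (0.96 to 0.15), but trap-3 was higher (0.31 to 0.95). sec-61.A, which encodes the channel itself, went from 1.08 to 1.51. In autophagy 24 of 31 genes were higher, beside 66.7% of all named genes (median 0.06). The gene atg-18, which encodes a phosphoinositide-binding protein of the early autophagosome, was past 2-fold (-0.36 to 0.71).

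Most listed chromatin genes were called in neither genotype, and single ones were past 2-fold. htz-1, which encodes the histone variant H2A.Z, went from -0.24 to 1.26 (2.83-fold higher, rank 18 in baf-1(G12T)), over 4 fragments. It was the 1 histone gene of 83 past 2-fold, and most canonical histone genes, which are repeated and short, were uncalled. hda-2, a class I histone deacetylase gene, went from -0.38 to 0.62, and dpy-30, a subunit of histone H3 lysine 4 methyltransferase complexes that also serves dosage compensation, from -0.69 to 0.48. lin-53 (0.30 to -0.34), a histone-binding subunit of several repressor complexes, and sir-2.1 (0.43 to -0.05), a sirtuin gene, were lower. Of 18 histone acetyltransferase genes (3 expressed) and 11 genes of H3K9 methylation and anchoring (1 expressed), 0 were past 2-fold, beside 5.74% of all expressed genes.

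**Figure D3:**
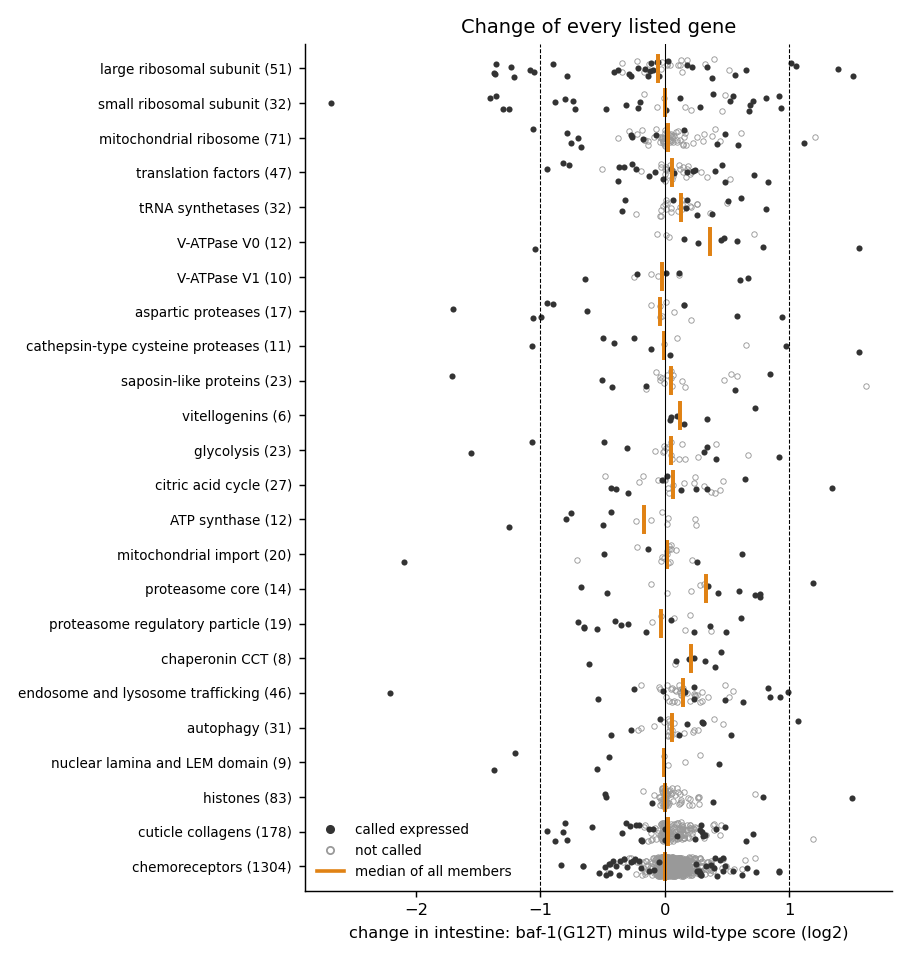
Change (baf-1(G12T) minus wild-type score, log2, x axis) of every member of 24 gene lists, with the number of genes in parentheses, filled for genes called in at least 1 genotype and open for the others, the orange bar at the list's median and dashed lines at 2-fold. Medians lie between -0.17 (ATP synthase) and 0.36 (V-ATPase V0), and the list that reaches furthest down is that of the small ribosomal subunit (ubl-1, -2.68).

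Defence, hormone and signalling genes gave isolated differences. osm-11, a secreted Notch co-ligand whose loss switches on the osmotic stress response, went from -0.20 to 1.22 (2.69-fold higher). ftn-2, a ferritin gene, went from 0.21 to 1.12 and sod-1, the cytosolic superoxide dismutase gene, from 0.65 to -0.14. Of 270 nuclear hormone receptor genes the 1 past 2-fold was nhr-114 (0.98 to -0.11), a receptor of the gut and germ line that protects against dietary tryptophan metabolites. The infection response gene irg-7 was lower (1.25 to 0.07). Of the xenobiotic lists (75 cytochrome P450, 66 glucuronosyl transferase and 49 glutathione transferase genes) 3, 10 and 14 genes were expressed. Of these 0 were past 2-fold, the nearest being ugt-40 (0.61 to -0.37).

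Several large families had few or no expressed members past 2-fold. Of 1304 chemoreceptor genes 43 were expressed and 0 of these were past 2-fold, with a median change of 0.00 over the family. Also expressed were 28 of 178 cuticle collagen genes, 18 of 239 C-type lectin genes and 10 of 106 neuropeptide genes, with 0 past 2-fold. These counts stand beside 5.74% of all expressed genes. F-box and MATH genes, 396 in all and 43 of them expressed, had 1 in each direction (math-40 at 1.05 and fbxa-94 at -1.001). A few genes best known outside the gut were nevertheless past 2-fold higher, such as mec-7, the touch neuron beta-tubulin (-0.54 to 0.85), and syp-2, a synaptonemal complex gene (-0.31 to 0.71). The 70 lists together held 47 of the 172 genes past 2-fold, beside 4275 of the 19974 named genes. The other 125 were in none, and 44 lists had no expressed member past 2-fold.

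The genes with the largest differences were mostly outside any list, as were most named genes. The 10 largest rises were Y51H7C.8 (-0.57 to 1.11), vha-1, cpr-4, ZK829.7 (-0.73 to 0.83), F26G1.10 (-0.69 to 0.86), K09C8.2 (-0.67 to 0.85), rpl-10, znf-706 (-0.65 to 0.86), htz-1 and B0563.18 (-0.47 to 1.02). Each was below 0 in wild type and uncalled there. The 10 largest falls were ubl-1, vps-33.1, tct-1, Y37E3.8, Y82E9BR.3, timm-17B.1, hmg-11, tag-321, ZK470.4 and odc-1. tct-1, the gene of the translationally controlled tumour protein, held rank 5 in wild type, at 2.56, and scored 0.39 in baf-1(G12T). Y82E9BR.3 went from 3.26 to 1.12 and Y37E3.8 from 2.42 to 0.28, while hmg-11 (1.26 to -0.79), tag-321 (1.25 to -0.78) and ZK470.4 (1.13 to -0.83) ended below 0.

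Among expressed genes, a set chosen with the same scores, the share past 2-fold varied with the number of GATC fragments in the gene. Of the expressed genes with 1 fragment 5 of 14 were past 2-fold (35.7%, 95% Wilson interval 16.3 to 61.2%, an interval for counting error over genes only). The share was 21.7% for 2 to 3 fragments (152 genes, 15.9 to 28.9%), 11.2% for 4 to 7 (752 genes, 9.11 to 13.6%), 4.13% for 8 to 15 (1090 genes, 3.10 to 5.48%) and 0.505% for 16 or more (990 genes, 0.216 to 1.18%). The SD of the change over genes was 0.77, 0.82, 0.66, 0.50 and 0.31 in the same order. Over all named genes, most of them uncalled, the fall was not steady: the shares were 0.915%, 1.44%, 1.54%, 0.732% and 0.168%, and the SDs 0.17, 0.24, 0.28, 0.25 and 0.19. A score is a mean over the fragments, so that genes with few of them rest on few measurements.

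The genes with 16 or more fragments were therefore described separately. The 3 past 2-fold lower were eat-6, the sodium-potassium pump alpha subunit (1.63 to 0.22, 26 fragments), irg-7 (45 fragments) and nhr-114 (19 fragments), and all 3 were also past 2-fold after quantile normalization. The 2 past 2-fold higher were ztf-7, a zinc finger gene (0.03 to 1.16, 17 fragments, 1.42 after normalization), and Y34D9A.8 (-0.96 to 0.15, 18 fragments), which was at 0.91 after normalization. Next in order came vps-16, at 0.99 over 18 fragments, and hsp-90, at -0.92 over 16 fragments and -0.05 after normalization. The deposited fragment numbers equalled a recount from the WBcel235 genome in 19633 of 19946 placed genes (98.4%).

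**Figure D4:**
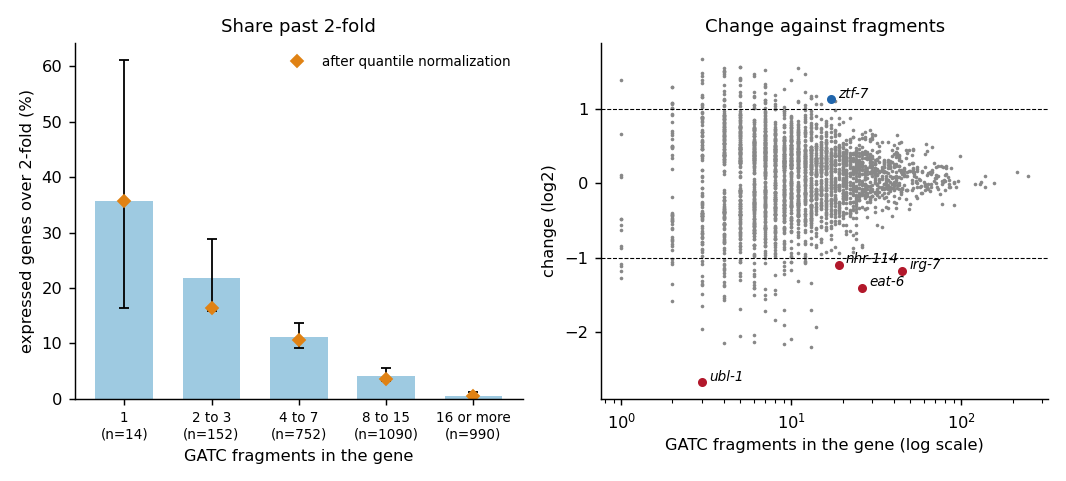
Left, percentage of expressed genes past 2-fold by GATC fragments in the gene (bars with 95% Wilson intervals, orange diamonds after quantile normalization), falling from 35.7% to 0.505%. Right, change of each expressed gene (log2) against its fragments (log axis), with dashed lines at 2-fold and named genes coloured blue (higher) or red (lower).

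The positions of the genes were compared. Of the 86 higher genes 5 (5.81%) had a direct neighbour past 2-fold in the same direction, and of the 86 lower genes 4 (4.65%), beside 2.29% of expressed genes with a change above 0 and 3.61% of those below 0. Of all neighbours of the higher genes 80.2% shared their direction, and of the lower genes 50.6%, beside 72.0% and 38.4% for those expressed genes. Of 579 pairs of adjacent expressed genes under 1000 bases apart, 369 (63.7%) had the same sign of change, namely 294 of the 452 pairs that share a GATC fragment and 75 of the 127 that do not. In 5 pairs both genes were past 2-fold, with the same sign in 4: rla-1 with Y37E3.8, F44F4.15 with F44F4.9, gpd-3 with gpd-2, and T14G8.6 with T14G8.4. vha-1 and vha-2 were the exception.

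The asp-6, asp-12 and asp-5 genes stand in a row on chromosome V, 272 and 328 bases apart, and share no GATC fragment with each other. The outer genes were lower (asp-6 by 0.90 and asp-5 by 0.99 on the log2 scale) and asp-12 between them was higher, at 0.94. F18E2.15, which was lower (0.71 to -0.86), likewise stood between papl-1 (0.10 to 0.99) and abcf-1 (-0.55 to 0.27). These rows were picked after their values were seen.

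**Figure D5:**
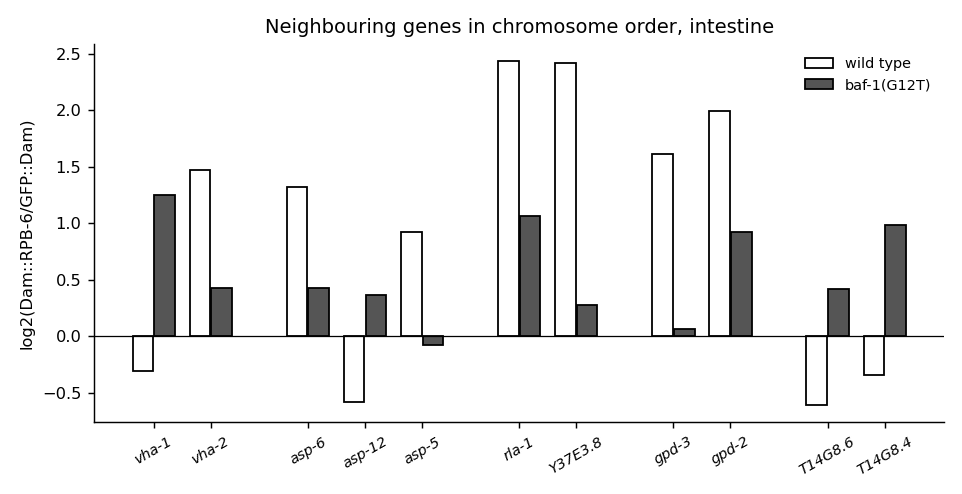
Scores of neighbouring genes in chromosome order in wild type (white bars) and baf-1(G12T) (grey bars), on the log2 scale, with the axis line at 0. vha-1 and vha-2 differ in opposite directions, asp-12 differs from asp-6 and asp-5, and the other 3 pairs shift together.

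Each chromosome carried both higher and lower genes. Chromosome II, the site of the Dam constructs, had 23 higher and 14 lower among 644 expressed genes and chromosome X had 9 and 13 among 356. With each chromosome cut into 3 equal stretches, the middle one held 37 higher and 38 lower of 1353 expressed genes and the outer ones 49 and 48 of 1639. The median change of expressed genes was 0.20 in the middle and 0.11 in the outer stretches.

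Promoters were read from 250 bases before to 50 bases after each gene start (Ensembl starts on the RefSeq WBcel235 genome). Intestinal promoters often hold GATA sites, and TGATAA (either strand) was found in 25.9% of the 85 placed promoters of higher genes, 32.5% of the 83 of lower genes, 32.5% of those of expressed genes and 30.1% of all. GTAAACA, the DAF-16 site, was in 2.35%, 8.43%, 4.91% and 4.74%, and the E-box CACGTG in 5.88%, 4.82%, 5.90% and 5.82%. GATC, on which no other motif searched falls whole, was in 61.2%, 56.6%, 48.8% and 47.6%. The promoters of cpr-4 (higher; chrV:6614424-6614723, plus strand), asp-2 (lower; chrV:9202827-9203126, plus strand) and odc-1 (lower; chrV:6900174-6900473, minus strand) are printed as genes of digestion and metabolism that were past 2-fold and hold the GATA motif, with TGATAA or its reverse complement and GATC in capitals.
cpr-4 promoter: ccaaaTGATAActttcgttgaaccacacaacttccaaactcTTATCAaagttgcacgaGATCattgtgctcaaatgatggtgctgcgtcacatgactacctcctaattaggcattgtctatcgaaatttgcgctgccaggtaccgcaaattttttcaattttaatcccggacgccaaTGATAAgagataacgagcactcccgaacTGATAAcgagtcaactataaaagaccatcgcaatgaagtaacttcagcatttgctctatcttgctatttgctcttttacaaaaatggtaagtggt
asp-2 promoter: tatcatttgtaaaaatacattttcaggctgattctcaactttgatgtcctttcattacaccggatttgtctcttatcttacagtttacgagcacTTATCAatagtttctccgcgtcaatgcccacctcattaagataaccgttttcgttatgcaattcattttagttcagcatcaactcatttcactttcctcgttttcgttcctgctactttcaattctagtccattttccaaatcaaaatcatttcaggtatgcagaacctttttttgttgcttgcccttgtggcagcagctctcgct
odc-1 promoter: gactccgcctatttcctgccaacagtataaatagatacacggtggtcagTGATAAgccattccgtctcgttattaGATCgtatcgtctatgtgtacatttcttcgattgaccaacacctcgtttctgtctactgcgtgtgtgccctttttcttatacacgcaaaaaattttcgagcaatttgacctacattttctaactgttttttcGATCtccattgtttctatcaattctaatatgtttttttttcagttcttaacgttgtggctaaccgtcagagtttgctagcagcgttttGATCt

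The cpr-4 promoter holds 4 TGATAA matches and 1 GATC, that of asp-2 holds 1 and 0, and that of odc-1 holds 1 and 3. The promoters of vha-1 and ubq-2 hold neither motif. The match is to letters only and was found in genes of both directions.

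The hypodermis of wild type and baf-1(G12T), measured in the other 8 libraries, is given beside. Of the 86 genes higher in intestine 3 were past 2-fold higher in hypodermis and 2 lower, and of the 86 lower ones 1 was past 2-fold lower there and 6 higher, where 2.23% and 1.2% of intestine-expressed genes were past 2-fold higher and lower in hypodermis. By sign alone 36 of the 86 higher and 40 of the 86 lower genes agreed. In hypodermis vha-1, for example, went from 1.11 to 0.15, and cpr-4 from 0.39 to -0.33, opposite to their intestinal changes, while htz-1 went from 0.65 to 1.30 and osm-11 from 1.73 to 3.34, in the same direction as in intestine.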

How the data were processed

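DamID was performed on 200 ng of genomic DNA from 4000 L4 animals per strain with 14 PCR cycles. The authors aligned the reads to the C. elegans genome (ce11, RDamIDSeq), formed Dam::RPB-6/GFP::Dam ratios with damidseq_pipeline and called genes with polii.gene.call on WBCel235. The deposited tables give the mean log2 ratio per gene, its FDR (a q-value set by the authors' caller) and the number of GATC fragments. Aligner settings and the treatment of reads that match several places are not given in the sources used here.

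From these, the tables of both genotypes were joined by gene name, genes with FDR under 0.05 in at least 1 genotype were called expressed, and the wild-type score was subtracted from the baf-1(G12T) score. A difference over 1 counted as over 2-fold. Alternatives were quantile normalization, median centring, scaling to the wild-type SD, other FDR and fold thresholds, and minimum fragment numbers. With 1 value per genotype no test, error or p-value was computed. The steps were tested on simulated data. Python 3.11.15, pandas 2.3.3, numpy 2.4.6 and scipy 1.17.1 were used. Gene positions came from Ensembl release 115 (19406 genes) and RefSeq (540), both on WBcel235.

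Named genes were the 10 largest rises and falls past 2-fold on both scales, up to 6 members of each list past 2-fold or otherwise the 2 most changed and the 2 highest, the 5 most changed each way with 16 or more fragments, genes of the nuclear envelope and the assay, and direct neighbours. Further list members were named after their values were seen. The members and lists were chosen with earlier results of these data known.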

Additional observations from a re-analysis of the deposited data

Results flagged for a closer look

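For 8 genes the change was past 2-fold in both tissues with opposite signs, and the difference between tissues was not tested. Lower in intestine and higher in hypodermis were Y82E9BR.3 (-2.136 in intestine, 1.51 in hypodermis), Y105C5B.9 (-1.43 and 1.13), emr-1 (-1.37 and 2.42), rpl-30 (-1.353 and 1.95), K11D12.14 (-1.11 and 2.54) and rpl-43 (-1.083 and 2.46). Higher in intestine and lower in hypodermis were rpl-29 (1.017 and -1.64) and ZK1127.5 (1.181 and -1.08). Among them emr-1 is a partner of BAF-1, and its wild-type scores were 2.43 in intestine and -0.04 in hypodermis. The genes rpl-29, rpl-30 and rpl-43 encode large-subunit ribosomal proteins and hold 2 to 3 GATC fragments, and K11D12.14 holds 1. In all, 12 genes were past 2-fold in both tissues, 4 of them with the same sign.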

How the results depend on the processing

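No paired analysis was possible because the files hold 1 value per gene and genotype, and for the same reason replicates could not be left out in turn. The count of higher genes (86) became 159 with baf-1(G12T) scores scaled to the wild-type SD, 1 among genes called in both genotypes, 413 at a difference of 0.58, 9 at 1.5 and 23 with at least 8 fragments. The count of lower genes (86) became 29 among genes called in both, 285 at 0.58, 24 at 1.5 and 27 with at least 8 fragments. Quantile normalization, median centring, FDR thresholds of 0.01 and 0.1, all named genes and at least 4 fragments kept both counts within 1.5 times. Over all named genes the shares past 2-fold by fragments were 0.915%, 1.44%, 1.54%, 0.732% and 0.168%, most of those genes being uncalled. Quantile normalization turned F21C3.7 from -1.03 to 0.32, the 1 gene past 2-fold that changed sign, and 160 of the 2998 expressed genes changed sign in all. It moved the vitellogenin median from 0.12 to 0.45, and SD scaling moved it to 0.46. Restricting lists to expressed genes moved these medians: aquaporins 0.73, metal handling 0.44, aspartic proteases -0.90, lysozymes -0.38, saposin-like -0.29, cytochrome P450 -0.62, glutathione transferases 0.32, oxidative stress defence -0.26, desaturases 0.57, elongases -0.24, complex I 0.74, ATP synthase -0.75, proteasome core 0.59, regulatory particle -0.29, lamina and LEM domain -0.54, insulin-like peptides -0.59, osmotic response 0.53, neuropeptides 0.43, sperm proteins 0.92 and F-box and MATH 0.31. The restriction itself selects genes that were high in 1 genotype. The other 50 list medians moved by less than 0.246, the SD of the change over all genes.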

Other observations

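Several smaller groups had members past 2-fold that belong to none of the comparisons above, and they were picked after their values were seen. Genes of RNA handling stood on both sides: pabp-2, a nuclear poly(A)-binding protein gene, went from -0.85 to 0.27, cwc-15, a spliceosome gene, from -0.85 to 0.36, and mut-15, a gene of small RNA amplification in the germ line, from -0.87 to 0.61, whereas rsp-5, an SR splicing factor gene, went from 0.85 to -0.19 and cey-4, a cold-shock-domain RNA-binding protein gene, from 1.92 to 0.22. Single genes with other roles were past 2-fold higher, such as raga-1, a Rag GTPase of the TORC1 pathway (-0.73 to 0.33), and allo-1, an autophagy receptor gene for paternal mitochondria (-0.60 to 0.51). Others were past 2-fold lower, such as tatn-1, tyrosine aminotransferase (0.71 to -0.35), and folt-1, a folate transporter (0.93 to -0.40). umps-1, the last enzyme of pyrimidine synthesis, was higher (0.04 to 1.22).

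Of the genes called in neither genotype, 25 were past 2-fold higher and 4 lower, so that the deposited differences past 2-fold over all named genes were 111 (0.556%) and 90 (0.451%).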
